A study of Homo sapiens with 6 samples.

Results

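RAB GTPases are small GTP-binding proteins that direct vesicle traffic, and their transcripts were measured in 143B osteosarcoma cells treated with a SIGLEC15 siRNA or with a control siRNA. Members were taken as the protein-coding rows of the deposited gene table whose symbol is RAB followed by digits and optional letters, which gave 66 of 58825 genes. Of these, 64 encode RAB GTPases. The pattern also takes RAB3IP, an exchange factor for RAB8, and RAB5IF, a RAB5-interacting factor, neither of which is a GTPase. The 143B line is an established human osteosarcoma line. Cells grown with 10% serum received 80 nmol/L of siRNA for 36 h, in 3 libraries with an siRNA against SIGLEC15, a sialic acid-binding receptor, and in 3 libraries with a negative control siRNA. Neither siRNA sequence was used here. Separate cultures are not stated for the 3 libraries of each group, so p-values reflect the spread from library to library, possibly technical alone.

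A RAB protein switches between a GDP-bound form held in the cytosol and a GTP-bound form on a membrane. Exchange factors (GEFs) load GTP, GTPase-activating proteins (GAPs) end the active state, and dissociation inhibitors extract the GDP-bound form from membranes. Active RABs recruit effectors that tether, move or fuse vesicles, and different RABs mark different compartments: RAB1 and RAB2 the route between endoplasmic reticulum and Golgi, RAB5 early endosomes, RAB11 recycling endosomes and RAB7 late endosomes and lysosomes.

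Libraries held 57966691 to 67655254 gene counts. SIGLEC15, the target of the siRNA, had 12, 8 and 6 counts in the SIGLEC15 siRNA libraries and 12, 10 and 22 counts in the control siRNA libraries, and its difference did not pass the test (log2 fold change -0.82; edgeR p adjusted over all tested genes = 0.529). The label of the knockdown group is therefore not checked by the target's own transcript. Levels are given as FPKM, which is scaled to transcript length and library size. Of 10 bone and mesenchymal markers 9 were matched and 7 tested, and 2 of these rose (edgeR). That is 28.6% called, against 4.65% of all tested genes. SPARC rose 1.75-fold (edgeR adjusted p = 0.00137), at 107.6 to 111.2 FPKM in the SIGLEC15 siRNA libraries and 60.8 to 64.4 FPKM in the control siRNA libraries. COL1A1 rose 1.62-fold at a level under 2 FPKM (edgeR adjusted p = 0.0134, and 0.0418 to 0.0664 without 1 library). RUNX2 had 2.03, 0.373 and 1.53 FPKM in the SIGLEC15 siRNA libraries and 0.352, 0.365 and 0.265 FPKM in the control siRNA libraries (log2 fold change 2.00, edgeR adjusted p = 0.113, and 0.0147 without SIGLEC15 siRNA replicate 2). VIM and SPP1 lay above 10 FPKM in every library and did not pass the edgeR test, BGLAP stood below 0.21 FPKM, IBSP had no count, and COL1A2 and ALPL were near 0. By edgeR 3 of the 7 tested markers, SPARC, COL1A1 and RUNX2, had log2 fold changes above 0. The other 4, SPP1 among them, lay below 0, and the median was -0.141. DESeq2 called 4 of these markers, COL1A1, RUNX2, SPARC and SPP1 (DESeq2 adjusted p = 0.0219 for RUNX2). The bone list summed to 537.6 to 581.7 FPKM in the SIGLEC15 siRNA libraries and 547.4 to 584.9 FPKM in the control siRNA libraries, most of it VIM. Without VIM the sum was 125.1 to 127.7 FPKM in the SIGLEC15 siRNA libraries and 77.8 to 82.1 FPKM in the control siRNA libraries. Most of that sum was SPARC, and leaving out VIM was not planned. The part of these markers in the RAB results was not tested. The epithelial list summed to 3.30 to 4.05 FPKM in the SIGLEC15 siRNA libraries and 4.06 to 4.83 FPKM in the control siRNA libraries, nearly all of it EPCAM, with 62 to 170 counts of CLDN4 in each library and none of CDH1, KRT5 or KRT14. The blood and endothelial list summed to 0.0313 to 0.104 FPKM in the SIGLEC15 siRNA libraries and 0.0176 to 0.0455 FPKM in the control siRNA libraries: PECAM1 had 11 to 27 counts in each library, CD14 and VWF had at most 12 in any, and PTPRC and CD3E had none. In these bulk libraries fewer cells expressing a gene and less RNA per cell cannot be told apart.

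Of the 66 members, 61 passed the filter on low counts and were tested, and 5 of these changed at a Benjamini-Hochberg adjusted p under 0.05 (edgeR quasi-likelihood test, adjusted over all 18910 genes tested). That is 8.2% of the tested members, against 4.65% of all tested genes. RAB5B and RAB7A, the genes of an early and of the main late endosomal RAB, fell, and so did RAB39B and RAB2B of the Golgi group, so that 4 members fell where 2.43% of all tested genes did. RAB12, of the late endosome group, rose, as did 2.22% of all tested genes. In counts scaled to library size (CPM) the 3 SIGLEC15 siRNA values did not overlap the 3 control siRNA values in 24 members, or 39.3% of those tested, against 26.6% of all tested genes. SIGLEC15 siRNA lay above in 10 of them and below in 14, against 12.9% and 13.7% of all tested genes. At an unadjusted p under 0.05 there were 17 members, and 19.1% of all tested genes passed that level. The median log2 fold change was -0.02 over the tested members and -0.01 over all tested genes, with 30 members above 0 and 31 below. RAB5B and RAB7A lay farthest below that median. DESeq2 called 17 members and 2917 genes on the same counts. With 1 library left out, 3 or 4 members were called: RAB5B, RAB7A and RAB39B each time. The fourth, without SIGLEC15 siRNA replicate 3, was RAB5A, which is not among the 5.

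The 5 members left untested were RAB17, RAB19 and RAB25, with 0 counts in every library, and RAB40AL and RAB44, with counts in 1 library each. In level per transcript length, 21 members reached 10 FPKM in the SIGLEC15 siRNA group and 19 in the control siRNA group, and 25 members averaged under 1 FPKM in the SIGLEC15 siRNA group and 22 in the control siRNA group. RAB7A was the 1 member above 100 FPKM, and only in the control siRNA group.

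**Figure D1:**
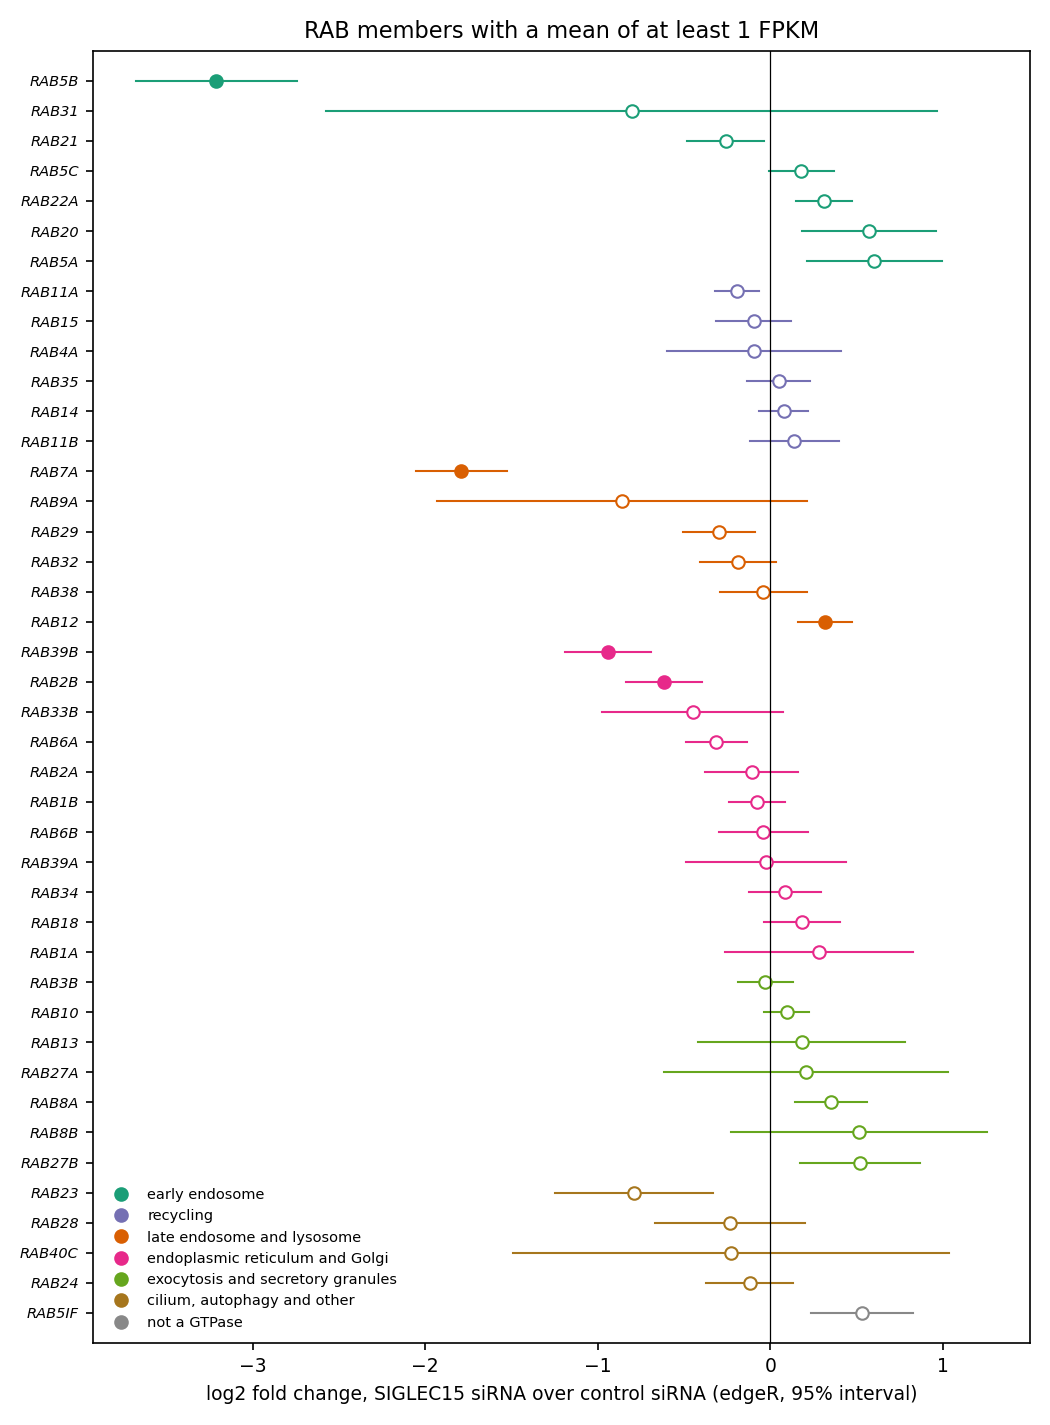
Log2 fold change of each of the 42 members with a mean of at least 1 FPKM, SIGLEC15 siRNA over control siRNA, grouped by role. Points are edgeR estimates, lines are 95% intervals, and filled points passed an adjusted p under 0.05. RAB5B at -3.21 and RAB7A at -1.79 lie farthest below 0, and RAB12 at 0.32 is the filled point above 0.

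The early endosome group held 8 members, 7 of them tested. The RAB5 paralogs RAB5A, RAB5B and RAB5C, which control fusion of endocytic vesicles with early endosomes, did not move alike. RAB5B (ENSG00000111540, chromosome 12, 55973913 to 55994706, plus strand, by the authors' table) stood at 0.662, 1.07 and 0.705 FPKM in the SIGLEC15 siRNA libraries, against 8.38, 7.14 and 7.20 FPKM in the control siRNA libraries. All 3 SIGLEC15 siRNA values lay far below the lowest control siRNA value. These levels rest on 349, 486 and 374 counts in the SIGLEC15 siRNA libraries and 3998, 3274 and 3468 counts in the control siRNA libraries. RAB5B fell 9.25-fold (log2 fold change -3.21, SE 0.196, 95% interval -3.68 to -2.74, edgeR adjusted p = 0.00137). A fall of at least 2-fold was called in 0.619% of all tested genes. A processed pseudogene on the opposite strand within RAB5B had 16.0 CPM in the SIGLEC15 siRNA group and 16.3 CPM in the control siRNA group.

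RAB5A stood at 18.8, 19.0 and 12.5 FPKM in the SIGLEC15 siRNA libraries, against 11.4, 11.7 and 10.1 FPKM in the control siRNA libraries. The groups did not overlap, and SIGLEC15 siRNA replicate 3 lay close to the control values. The log2 fold change of 0.60 (95% interval 0.21 to 0.99) did not pass the test (edgeR adjusted p = 0.1). Without SIGLEC15 siRNA replicate 3 it was 0.77 and passed (edgeR adjusted p = 0.0201), and DESeq2 called it with all 6 libraries. RAB5C had 18.7, 22.8 and 21.6 FPKM in the SIGLEC15 siRNA libraries and 18.7, 18.6 and 18.3 FPKM in the control siRNA libraries. The lowest SIGLEC15 siRNA library lay barely above the highest control siRNA library, and the log2 fold change of 0.18 (95% interval -0.01 to 0.37, edgeR adjusted p = 0.293) did not pass the test.

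In the sum of the 3 paralogs in FPKM, the share of RAB5B was 1.73%, 2.50% and 2.03% in the SIGLEC15 siRNA libraries and 21.8%, 19.1% and 20.2% in the control siRNA libraries. The mean share was 2.09% ± 0.389 in the SIGLEC15 siRNA group and 20.4% ± 1.35 in the control siRNA group (SD, n = 3 each; exact two-sided permutation p = 0.1, the smallest that 3 against 3 libraries can give). In CPM, which weights longer transcripts more, the share was 4.21% ± 0.777 in the SIGLEC15 siRNA group and 34.7% ± 1.90 in the control siRNA group (SD, n = 3 each; exact two-sided permutation p = 0.1). In percentage points this was a wider gap, at -30.5 in CPM and -18.3 in FPKM. The summed level was 38.2, 42.8 and 34.8 FPKM in the SIGLEC15 siRNA libraries and 38.5, 37.4 and 35.6 FPKM in the control siRNA libraries. These sums overlapped, with means of 38.6 FPKM ± 4.05 in the SIGLEC15 siRNA group and 37.2 FPKM ± 1.44 in the control siRNA group (SD, n = 3 each; exact two-sided permutation p = 0.8). Summed over RAB5A and RAB5C alone the level was 37.8 FPKM ± 3.86 in the SIGLEC15 siRNA group and 29.6 FPKM ± 1.02 in the control siRNA group (SD, n = 3 each), a ratio of 1.28 (exact two-sided permutation p = 0.1, again the smallest possible). The direction of the 3-paralog sum was not stable: without SIGLEC15 siRNA replicate 2 the SIGLEC15 siRNA mean was 0.671 FPKM lower than the control mean, and in CPM it was 18.9 CPM lower.

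The other early endosome members did not pass the edgeR test. RAB22A, which acts on early and recycling endosomes, had 10.4, 10.3 and 9.91 FPKM in the SIGLEC15 siRNA libraries and 8.11, 7.89 and 8.70 FPKM in the control siRNA libraries. Its groups did not overlap, and its log2 fold change of 0.31 lay just outside the threshold (edgeR adjusted p = 0.0572). DESeq2 called it, and so did both limma-trend fits on FPKM. RAB20, known from phagosome maturation in macrophages, had a log2 fold change of 0.57 (edgeR adjusted p = 0.114) and RAB21, a RAB that binds integrins, one of -0.26 (edgeR adjusted p = 0.197), and DESeq2 called both. RAB31, which acts between the trans-Golgi network and endosomes, varied widely inside both groups and is described with the other variable members.

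**Figure D2:**
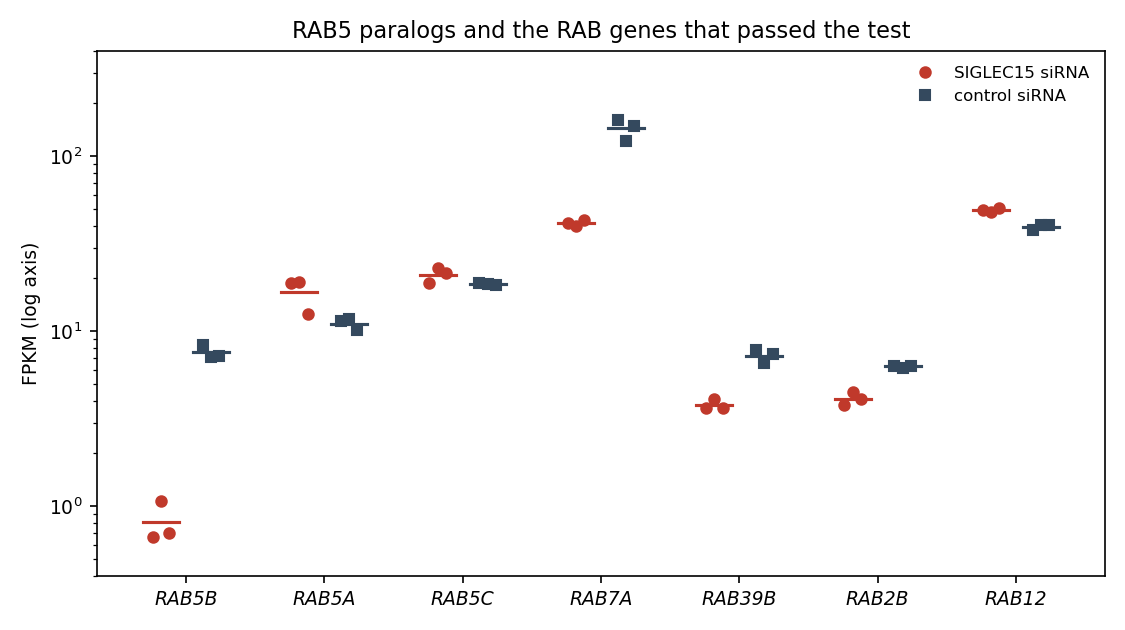
FPKM of the RAB5 paralogs and of the members that passed the test, on a log axis, 1 point per library and a line at each group mean (3 SIGLEC15 siRNA libraries in red, left of 3 control siRNA libraries in dark blue). RAB5B and RAB7A show wide gaps between the groups, RAB5A and RAB5C lie higher in the SIGLEC15 siRNA group without passing the edgeR test, and RAB12 rose by 0.32 on the log2 scale.

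Among the 9 members of the late endosome and lysosome group, all tested, 1 fell and 1 rose (22.2% called, against 4.65% of all tested genes). RAB7A (ENSG00000075785, chromosome 3, 128726122 to 128814796, plus strand) directs traffic from late endosomes to lysosomes and recruits the retromer complex. It stood at 41.7, 40.0 and 43.2 FPKM in the SIGLEC15 siRNA libraries, against 161.6, 122.4 and 148.2 FPKM in the control siRNA libraries. Every SIGLEC15 siRNA value was under the lowest control value by a wide margin, and the SIGLEC15 siRNA libraries lay close together. The mean was 41.6 FPKM ± 1.59 in the SIGLEC15 siRNA group and 144.0 FPKM ± 19.9 in the control siRNA group (SD, n = 3 each). RAB7A fell 3.46-fold (log2 fold change -1.79, SE 0.111, 95% interval -2.06 to -1.53, edgeR adjusted p = 0.00137). In level it ranked 6 among the 66 members in the SIGLEC15 siRNA group and 1 in the control siRNA group.

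RAB12 (chromosome 18, 8609437 to 8639382, plus strand), a substrate of the kinase LRRK2 that takes part in lysosomal degradation of the transferrin receptor, had 49.3, 47.7 and 50.7 FPKM in the SIGLEC15 siRNA libraries and 38.0, 40.4 and 40.1 FPKM in the control siRNA libraries. Its groups did not overlap, and it rose 1.25-fold (log2 fold change 0.32, SE 0.0653, edgeR adjusted p = 0.0464). This call rests on all 6 libraries: leaving out any 1 of them gave an edgeR adjusted p between 0.0956 and 0.137. Without the filter on low counts it also missed the threshold (edgeR adjusted p = 0.0741).

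RAB9A, which returns mannose 6-phosphate receptors from late endosomes to the Golgi, had 0.899, 3.57 and 3.21 FPKM in the SIGLEC15 siRNA libraries and 4.40, 4.75 and 4.70 FPKM in the control siRNA libraries. The values did not overlap, but SIGLEC15 siRNA replicate 1 lay well below its own group, and the log2 fold change of -0.86 (95% interval -1.93 to 0.21) had an edgeR adjusted p of 0.369. Without that library it was -0.46 (edgeR adjusted p = 0.146). RAB29, a partner of LRRK2, had a log2 fold change of -0.30 with an edgeR adjusted p of 0.125, and DESeq2 called it. RAB32 and RAB38, which serve melanosomes and other lysosome-related organelles, had log2 fold changes of -0.19 (95% interval -0.41 to 0.03) and -0.04 (95% interval -0.30 to 0.21). RAB7B, a paralog of RAB7A, was near its detection limit at 0.0773 to 0.140 FPKM in the SIGLEC15 siRNA libraries and 0.0805 to 0.0977 FPKM in the control siRNA libraries. RAB9B, the paralog of RAB9A, and RAB42 had log2 fold changes of -0.43 (95% interval -0.88 to 0.02) and -0.37 (95% interval -0.83 to 0.10).

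In the group of the endoplasmic reticulum and Golgi 17 of 18 members were tested and 2 fell (11.8% called, against 4.65% of all tested genes). RAB39B (chromosome X, 155258235 to 155264491, minus strand), a Golgi-associated RAB whose gene is mutated in X-linked intellectual disability with parkinsonism, had 3.64, 4.08 and 3.61 FPKM in the SIGLEC15 siRNA libraries and 7.79, 6.54 and 7.40 FPKM in the control siRNA libraries. The groups were well apart, and RAB39B fell 1.92-fold (log2 fold change -0.94, SE 0.105, edgeR adjusted p = 0.00722). Its paralog RAB39A had 1.90, 2.09 and 2.55 FPKM in the SIGLEC15 siRNA libraries and 2.68, 2.15 and 1.83 FPKM in the control siRNA libraries, which overlapped (log2 fold change -0.02, 95% interval -0.49 to 0.44). RAB2B (chromosome 14, 21459020 to 21476959, minus strand), a RAB of Golgi structure, had 3.77, 4.47 and 4.07 FPKM in the SIGLEC15 siRNA libraries and 6.32, 6.19 and 6.32 FPKM in the control siRNA libraries. It fell 1.53-fold with no overlap (log2 fold change -0.61, SE 0.0923, edgeR adjusted p = 0.0174). Without any 1 library the edgeR adjusted p was between 0.0550 and 0.0705, so this call too needs all 6. The gene TOX4 overlaps RAB2B on the opposite strand and was not called (log2 fold change -0.15), and no source used here gives whether counting used strand. The larger paralog by level, RAB2A, had 20.0, 18.4 and 14.8 FPKM in the SIGLEC15 siRNA libraries and 19.0, 19.6 and 18.8 FPKM in the control siRNA libraries, with a log2 fold change of -0.11 (95% interval -0.38 to 0.16).

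RAB1B and RAB1A, which act between endoplasmic reticulum and Golgi, had the highest levels of that group. RAB1B stood at 92.0, 87.8 and 80.4 FPKM in the SIGLEC15 siRNA libraries and at 93.0, 90.2 and 91.2 FPKM in the control siRNA libraries. These overlapped, and the log2 fold change of -0.08 had a narrow 95% interval of -0.24 to 0.09. RAB1A had 55.4, 36.3 and 36.4 FPKM in the SIGLEC15 siRNA libraries and 45.2, 31.7 and 28.9 FPKM in the control siRNA libraries. Replicate 1 was the highest library in both groups, and the log2 fold change of 0.28 had a 95% interval of -0.26 to 0.83. RAB6A, of retrograde Golgi transport, had 13.3, 12.2 and 13.6 FPKM in the SIGLEC15 siRNA libraries and 16.7, 16.5 and 15.5 FPKM in the control siRNA libraries. It did not overlap between groups but missed the threshold (log2 fold change -0.31, edgeR adjusted p = 0.0706), while DESeq2 and both limma-trend fits on FPKM called it. RAB6C and RAB6D are near-identical copies of RAB6A, and how reads that match several of them were counted is not known here, so its value is uncertain. RAB43 had the largest log2 fold change of any uncalled member, 1.27, from 0.0450, 0 and 0.293 FPKM in the SIGLEC15 siRNA libraries and 0.0780, 0.0256 and 0.0354 FPKM in the control siRNA libraries (95% interval -1.90 to 4.44, edgeR adjusted p = 0.682). Its reads may be split with the read-through gene ISY1-RAB43, and the 2 summed to 21.6 CPM ± 11.2 in the SIGLEC15 siRNA group and 28.1 CPM ± 8.49 in the control siRNA group (SD, n = 3 each).

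Among the remaining members of the endoplasmic reticulum and Golgi group, none passed the edgeR test. An unadjusted p under 0.05, which 19.1% of all tested genes had, was found for 1, RAB30, which DESeq2 called. RAB18, of the endoplasmic reticulum and lipid droplets, had 10.6, 9.02 and 10.5 FPKM in the SIGLEC15 siRNA libraries and 8.68, 9.22 and 8.61 FPKM in the control siRNA libraries (log2 fold change 0.18, 95% interval -0.03 to 0.40). RAB34 had 14.8, 14.3 and 13.2 FPKM in the SIGLEC15 siRNA libraries and 14.1, 13.8 and 11.96 FPKM in the control siRNA libraries (log2 fold change 0.08, 95% interval -0.13 to 0.29). Both overlapped between the groups. RAB33B, a Golgi RAB that binds the autophagy protein ATG16L1, was lower in all 3 SIGLEC15 siRNA libraries, at 1.20, 2.09 and 2.17 FPKM, against 2.46, 2.58 and 2.42 FPKM in the control siRNA libraries (log2 fold change -0.45, edgeR adjusted p = 0.333). RAB30, a Golgi RAB, was low in level but higher in all 3 SIGLEC15 siRNA libraries, at 0.311, 0.363 and 0.270 FPKM, against 0.237, 0.198 and 0.133 FPKM in the control siRNA libraries (log2 fold change 0.72, edgeR adjusted p = 0.162). RAB6B, the paralog of RAB6A that is known from neurons, had a log2 fold change of -0.04 (95% interval -0.30 to 0.22). RAB6C, RAB33A, RAB36 and RAB41 all stayed under 0.4 FPKM in every library.

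No member of the recycling group changed by edgeR, with 7 of 8 tested and log2 fold changes between -0.20 and 0.14. At an unadjusted p under 0.05, which 19.1% of all tested genes had, there was 1, RAB11A, which DESeq2 called. RAB14, of traffic between Golgi and endosomes, had 29.7, 30.3 and 31.1 FPKM in the SIGLEC15 siRNA libraries and 28.0, 29.9 and 28.3 FPKM in the control siRNA libraries (log2 fold change 0.08, 95% interval -0.06 to 0.22). RAB11B, of the recycling endosome, had 27.2, 25.5 and 22.6 FPKM in the SIGLEC15 siRNA libraries and 21.1, 22.1 and 25.2 FPKM in the control siRNA libraries (log2 fold change 0.14, 95% interval -0.12 to 0.40). Both overlapped between the groups. RAB11A, its paralog, stood at 20.8, 21.0 and 21.1 FPKM in the SIGLEC15 siRNA libraries and 23.7, 24.2 and 24.0 FPKM in the control siRNA libraries. Its groups were apart by a small step of -0.20 on the log2 scale (edgeR adjusted p = 0.101). RAB35 and RAB4A, of fast recycling, had log2 fold changes of 0.05 (95% interval -0.13 to 0.23) and -0.10 (95% interval -0.60 to 0.41). RAB15 and RAB4B had log2 fold changes of -0.10 (95% interval -0.32 to 0.12) and 0.04 (95% interval -0.37 to 0.45).

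None of the 12 tested members of the exocytosis and secretory granule group changed by edgeR. At an unadjusted p under 0.05, a level that 19.1% of all tested genes passed, there were 2, RAB8A and RAB27B, and DESeq2 called both. RAB10, which acts in GLUT4 exocytosis, had 40.0, 41.9 and 41.4 FPKM in the SIGLEC15 siRNA libraries and 39.8, 37.3 and 38.4 FPKM in the control siRNA libraries (log2 fold change 0.09, 95% interval -0.04 to 0.22). RAB13, of tight junction traffic, had 39.4, 46.9 and 45.1 FPKM in the SIGLEC15 siRNA libraries and 44.6, 23.4 and 47.7 FPKM in the control siRNA libraries (log2 fold change 0.18, 95% interval -0.42 to 0.78). RAB8A, of exocytosis and ciliary membrane delivery, had 9.76, 11.7 and 10.1 FPKM in the SIGLEC15 siRNA libraries and 8.82, 8.09 and 7.81 FPKM in the control siRNA libraries. Its groups did not overlap, and its log2 fold change of 0.35 missed the threshold (edgeR adjusted p = 0.0793). RAB27B, which with RAB27A docks secretory vesicles and exosome-bearing bodies, had 1.63, 1.79 and 1.84 FPKM in the SIGLEC15 siRNA libraries and 1.48, 1.103 and 1.09 FPKM in the control siRNA libraries, with no overlap (log2 fold change 0.52, edgeR adjusted p = 0.108). RAB3A, RAB3C, RAB3D, RAB26 and RAB37, known from regulated secretion, averaged under 1 FPKM in both groups and overlapped between them.

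Nor did any of the 6 tested members of the last group, of cilium, autophagy and other functions, pass the edgeR test. RAB23 was the 1 with an unadjusted p under 0.05, against 19.1% of all tested genes, and DESeq2 called it. RAB28, found at cilia, had 6.67, 5.66 and 9.13 FPKM in the SIGLEC15 siRNA libraries and 8.49, 8.55 and 8.19 FPKM in the control siRNA libraries (log2 fold change -0.23, 95% interval -0.67 to 0.20). RAB24, an atypical RAB linked to autophagy, had 5.19, 5.08 and 5.23 FPKM in the SIGLEC15 siRNA libraries and 5.17, 6.0 and 5.68 FPKM in the control siRNA libraries (log2 fold change -0.12, 95% interval -0.37 to 0.13). Both overlapped. RAB23, a regulator of Hedgehog signalling, had 1.33, 2.29 and 1.91 FPKM in the SIGLEC15 siRNA libraries and 2.96, 3.19 and 3.40 FPKM in the control siRNA libraries. It was lower in all 3 SIGLEC15 siRNA libraries without passing the test (log2 fold change -0.79, edgeR adjusted p = 0.0744). BAG2, a gene called higher, overlaps RAB23 on the opposite strand. RAB40A and RAB40B, relatives of RAB40C, averaged under 1 FPKM in both groups, with log2 fold changes of 0.18 (95% interval -0.72 to 1.08) and 0.29 (95% interval -0.37 to 0.96).

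Of the members that are not GTPases, RAB3IP had a log2 fold change of -0.22 (95% interval -0.48 to 0.05). RAB5IF had 98.6, 90.1 and 88.0 FPKM in the SIGLEC15 siRNA libraries and 71.4, 52.6 and 67.3 FPKM in the control siRNA libraries, apart between groups but outside the threshold of edgeR (log2 fold change 0.53, edgeR adjusted p = 0.0657), while DESeq2 called it. The read-through gene TGIF2-RAB5IF shares its locus and had 8.29, 8.68 and 10.99 CPM in the SIGLEC15 siRNA libraries, against 9.62, 41.8 and 32.6 CPM in the control siRNA libraries. Summed, both genes came to 174.5 CPM ± 11.2 in the SIGLEC15 siRNA group and 142.2 CPM ± 10.8 in the control siRNA group (SD, n = 3 each; exact two-sided permutation p = 0.1, the smallest possible), a log2 ratio of 0.30 in place of 0.53.

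All members together summed to 748.1, 730.7 and 724.9 FPKM in the SIGLEC15 siRNA libraries and 860.8, 742.8 and 807.4 FPKM in the control siRNA libraries. The means were 734.6 FPKM ± 12.04 in the SIGLEC15 siRNA group and 803.7 FPKM ± 59.1 in the control siRNA group (SD, n = 3 each; exact two-sided permutation p = 0.2). RAB7A made up 5.67% ± 0.254 of the sum in the SIGLEC15 siRNA group and 17.9% ± 1.23 in the control siRNA group (SD, n = 3 each; exact two-sided permutation p = 0.1, the smallest possible). With RAB7A left out, a choice made after seeing the data, the direction of the sum turned round, to 692.9 FPKM ± 12.5 in the SIGLEC15 siRNA group and 659.6 FPKM ± 39.4 in the control siRNA group (SD, n = 3 each; exact two-sided permutation p = 0.3). The gap between the group means was wider for RAB7A alone than for the total. In FPKM the sums overlapped between the groups both with and without RAB7A. The difference of -69.1 FPKM was -40.5 FPKM without control siRNA replicate 1 and -99.5 FPKM without control siRNA replicate 2 (exact two-sided permutation p = 0.1, the smallest possible). In CPM the sum of all members did not overlap, at 2820 CPM ± 62.0 in the SIGLEC15 siRNA group and 3118 CPM ± 220.5 in the control siRNA group (SD, n = 3 each; exact two-sided permutation p = 0.1, the smallest possible), and without RAB7A it overlapped, at 2686 CPM ± 56.6 in the SIGLEC15 siRNA group and 2652 CPM ± 159.4 in the control siRNA group (SD, n = 3 each).

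**Figure D3:**
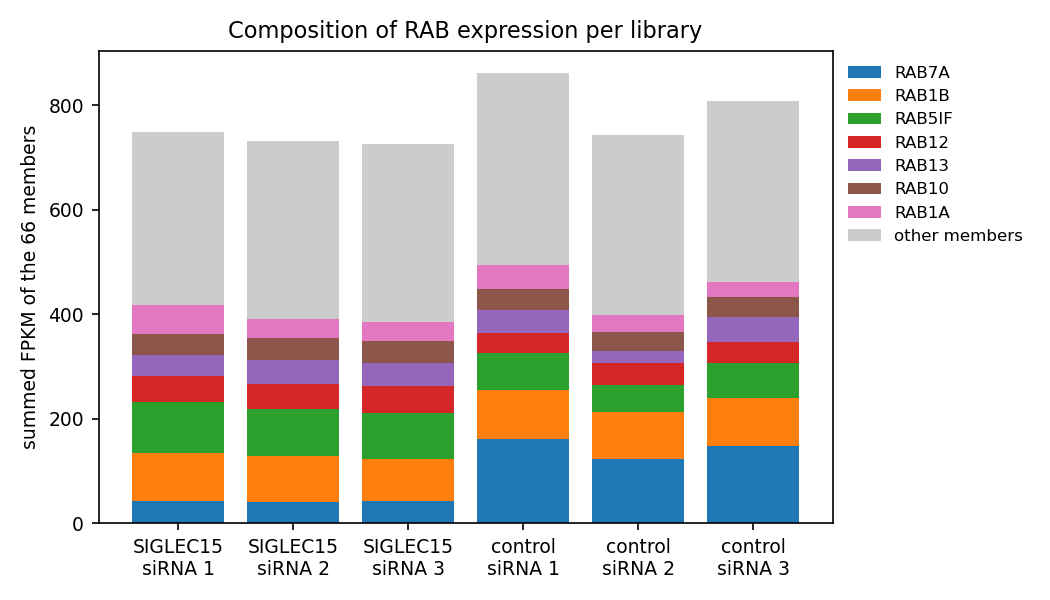
Summed FPKM of the 66 members in each library, SIGLEC15 siRNA libraries left of control siRNA libraries, with the 7 members of highest mean level as coloured segments and the other members in grey. The RAB7A segment at the base takes 5.47% to 5.96% of each SIGLEC15 siRNA bar and 16.5% to 18.8% of each control siRNA bar.

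The lists of RAB regulators and effectors below were chosen with earlier results of these data known, and they are described by counts. RABGGTB, the catalytic subunit of the RAB geranylgeranyl transferase, had 18.8, 18.1 and 17.1 FPKM in the SIGLEC15 siRNA libraries and 21.5, 24.2 and 24.2 FPKM in the control siRNA libraries. It fell 1.29-fold at an edgeR adjusted p of 0.0499, which was 0.0574 to 0.164 without 1 library.

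Among 8 tested RAB5 exchange factors, 1 fell (12.5%, against 4.65% of all tested genes). GAPVD1, which loads RAB5 with GTP, had 1.05, 1.33 and 1.17 FPKM in the SIGLEC15 siRNA libraries and 2.12, 2.21 and 1.99 FPKM in the control siRNA libraries, with no overlap. It fell 1.78-fold (log2 fold change -0.83, SE 0.104, edgeR adjusted p = 0.0103), and leaving out control siRNA replicate 2 took the edgeR adjusted p to 0.0525. None of 17 tested RAB5 effectors changed by edgeR, and DESeq2 called 1, APPL1. An unadjusted p under 0.05 was found for 4 of the 17, against 19.1% of all tested genes. EEA1, the tether of early endosome fusion, had 2.07, 3.13 and 3.36 FPKM in the SIGLEC15 siRNA libraries and 2.50, 2.51 and 1.88 FPKM in the control siRNA libraries (log2 fold change 0.31, edgeR adjusted p = 0.468). RABEP1, the partner of the exchange factor RABGEF1, had a log2 fold change of 0.09 (edgeR adjusted p = 0.642). APPL1, an effector on a subset of early endosomes, had 8.20, 9.15 and 9.23 FPKM in the SIGLEC15 siRNA libraries and 7.35, 7.55 and 6.97 FPKM in the control siRNA libraries, apart but uncalled (log2 fold change 0.28, edgeR adjusted p = 0.0815).

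Of 36 tested RAB GTPase-activating proteins 2 rose and 1 fell (8.33%, against 4.65% of all tested genes). TBC1D5, a GAP for RAB7 that binds retromer, had 1.90, 1.99 and 2.14 FPKM in the SIGLEC15 siRNA libraries and 5.77, 6.10 and 4.57 FPKM in the control siRNA libraries. It fell 2.72-fold with groups well apart (log2 fold change -1.45, SE 0.119, edgeR adjusted p = 0.00300). TBC1D8 and TBC1D9, both TBC-domain proteins, rose by 0.49 and 0.50 on the log2 scale (edgeR adjusted p = 0.0232 and 0.0299). These 2 calls were less stable: without 1 library TBC1D8 had an edgeR adjusted p of 0.0581 to 0.0981, and TBC1D9 one of 0.0423 to 0.115.

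Of 39 tested other exchange factors, DENND6A, an exchange factor for RAB14, rose (log2 fold change 0.60, edgeR adjusted p = 0.0157) and DENND3, one for RAB12, fell (log2 fold change -0.58, edgeR adjusted p = 0.0373). Together they are 5.13%, close to the 4.65% of all tested genes. Of 33 tested other effectors, SYTL4 and MLPH, effectors of RAB27, fell by 0.60 and 0.33 on the log2 scale (edgeR adjusted p = 0.0303 and 0.0398). That is 6.06% called, against 4.65% of all tested genes. Without 1 library the edgeR adjusted p was 0.0493 to 0.0730 for DENND6A, 0.0700 to 0.117 for DENND3, 0.0683 to 0.106 for SYTL4 and 0.0613 to 0.143 for MLPH.

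**Figure D4:**
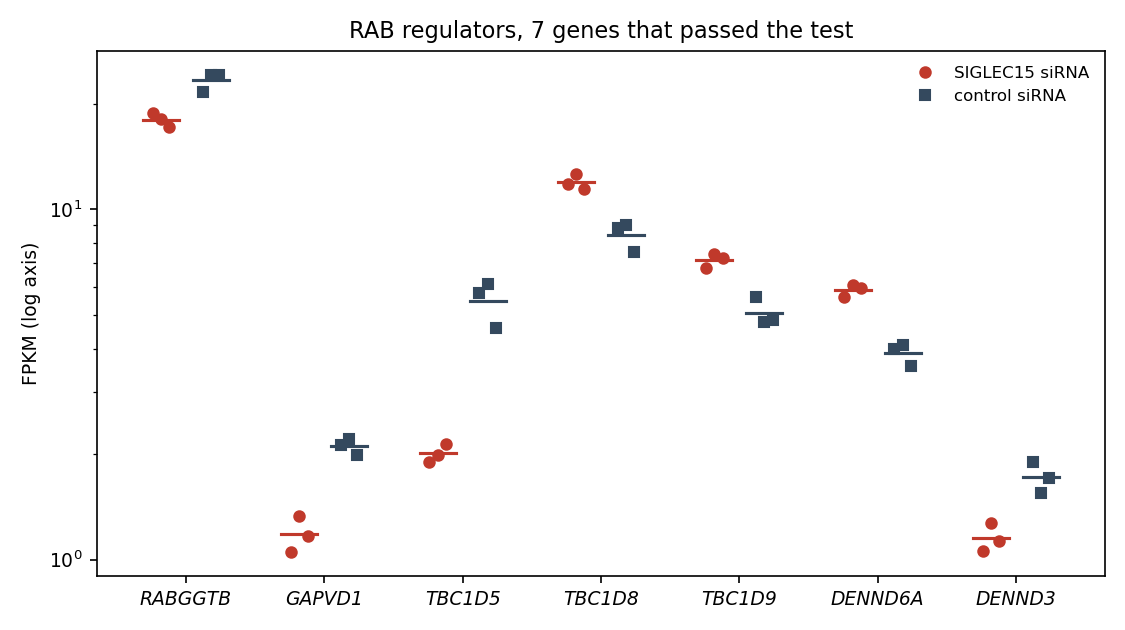
FPKM of 7 RAB regulators that passed the test, on a log axis, 1 point per library and a line at each group mean (SIGLEC15 siRNA in red, left of control siRNA in dark blue). RABGGTB, GAPVD1, TBC1D5 and DENND3 lie lower in the SIGLEC15 siRNA libraries, and TBC1D8, TBC1D9 and DENND6A lie higher, with no overlap between groups in any of them.

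The 7-letter sequence AGGCTCA was picked in an earlier pass over these data, for its frequency in 3' UTRs of genes that fell, so its match to any gene here is a description and no independent support. It was searched on the transcript strand of the longest 3' UTR of each gene in the basic set of GENCODE 29 (GRCh38). It was present in 7 of 61 tested members (11.5%), against 1671 of 13723 tested genes with a 3' UTR (12.2%). The median 3' UTR length was 2150 bases in the members and 1352 bases in those genes, and the shares are not adjusted for length. Among the tested genes with a 3' UTR, AGGCTCA was present in 125 of 425 that fell (29.4%, median length 1556 bases) and in 39 of 403 that rose (9.68%, median length 1896 bases). Of the 4 members that fell it was present in RAB7A, and these letters were not in the 3' UTR windows of RAB5B, RAB39B and RAB2B. The remaining 6 members with it, RAB3B, RAB21, RAB22A, RAB27B, RAB37 and RAB43, were uncalled, with log2 fold changes of -0.03, -0.26, 0.31, 0.52, -0.15 and 1.27. Among the regulators that fell it was present in TBC1D5, GAPVD1 and DENND3, and not in RABGGTB, SYTL4 or MLPH. It was not found in the regulators that rose, TBC1D8, TBC1D9 and DENND6A. Of the bone markers that rose, SPARC had it and COL1A1 did not. Of the uncalled members with AGGCTCA, RAB21 lay lower in every SIGLEC15 siRNA library (edgeR adjusted p = 0.197), and its site is not printed here. Some sites are shown because RAB7A and TBC1D5 fell while RAB22A and RAB27B, with the same letters, lay higher in every SIGLEC15 siRNA library. Each is written 5' to 3' as DNA on the strand of the transcript, with the searched letters in capitals, and positions are those of GENCODE 29 on GRCh38.
RAB7A, chr3:128813908-128813936, plus strand: tgccccattacAGGCTCAcacccagtctg
TBC1D5 first site, chr3:17160881-17160909, minus strand: aggccagactgAGGCTCAtccagtggaga
TBC1D5 second site, chr3:17158515-17158543, minus strand: caaattcccacAGGCTCAtactcagacaa
GAPVD1, chr9:125366090-125366118, plus strand: gctgtagtaggAGGCTCAggttttctaag
RAB22A, chr20:58366151-58366179, plus strand: ttatttcccttAGGCTCAtttttctgtgg
RAB27B, chr18:54894692-54894720, plus strand: gagttcgtgtcAGGCTCAaaggagatatg
RAB3B, chr1:51917895-51917923, minus strand: catttcaaatgAGGCTCAttgtcctagaa

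The RAB7A site lies 497 bases into a 3' UTR of 1374 bases, and the RAB22A site 6459 bases into one of 7804 bases. RAB3B, with its site 2015 bases into the 3' UTR, had 4.19, 4.55 and 4.51 FPKM in the SIGLEC15 siRNA libraries and 4.53, 4.71 and 4.27 FPKM in the control siRNA libraries, which overlapped (95% interval of the log2 fold change -0.19 to 0.13).

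Some members varied widely between the libraries of 1 group. Of the 41 members with at least 1 FPKM in both groups, 4 had a highest library more than 2-fold above the lowest in the SIGLEC15 siRNA group (9.76%, against 6.28% of 11595 genes at that level), and 4 in the control siRNA group (9.76%, against 6.24%). The 2-fold limit was chosen after seeing the data. RAB31 had 4.57, 5.35 and 16.6 FPKM in the SIGLEC15 siRNA libraries and 32.1, 7.13 and 7.31 FPKM in the control siRNA libraries. SIGLEC15 siRNA replicate 3 and control siRNA replicate 1 were its high libraries, and its log2 fold change of -0.80 (95% interval -2.57 to 0.97, edgeR adjusted p = 0.632) became 0.29 without control siRNA replicate 1. RAB27A had 2.88, 7.89 and 7.45 FPKM in the SIGLEC15 siRNA libraries and 4.58, 5.69 and 5.44 FPKM in the control siRNA libraries, with SIGLEC15 siRNA replicate 1 low, as in RAB9A. RAB8B had 5.64, 6.60 and 6.33 FPKM in the SIGLEC15 siRNA libraries and 5.01, 2.29 and 5.68 FPKM in the control siRNA libraries, with control siRNA replicate 2 low, as in RAB13. RAB40C, a substrate receptor of a ubiquitin ligase, had 1.58, 0.789 and 1.91 FPKM in the SIGLEC15 siRNA libraries and 2.30, 0.606 and 2.12 FPKM in the control siRNA libraries, with replicate 2 low in both groups. The median ratio of highest to lowest library was 1.16 in the SIGLEC15 siRNA group and 1.14 in the control siRNA group over these members, and 1.18 and 1.17 over all genes at that level.

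**Figure D5:**
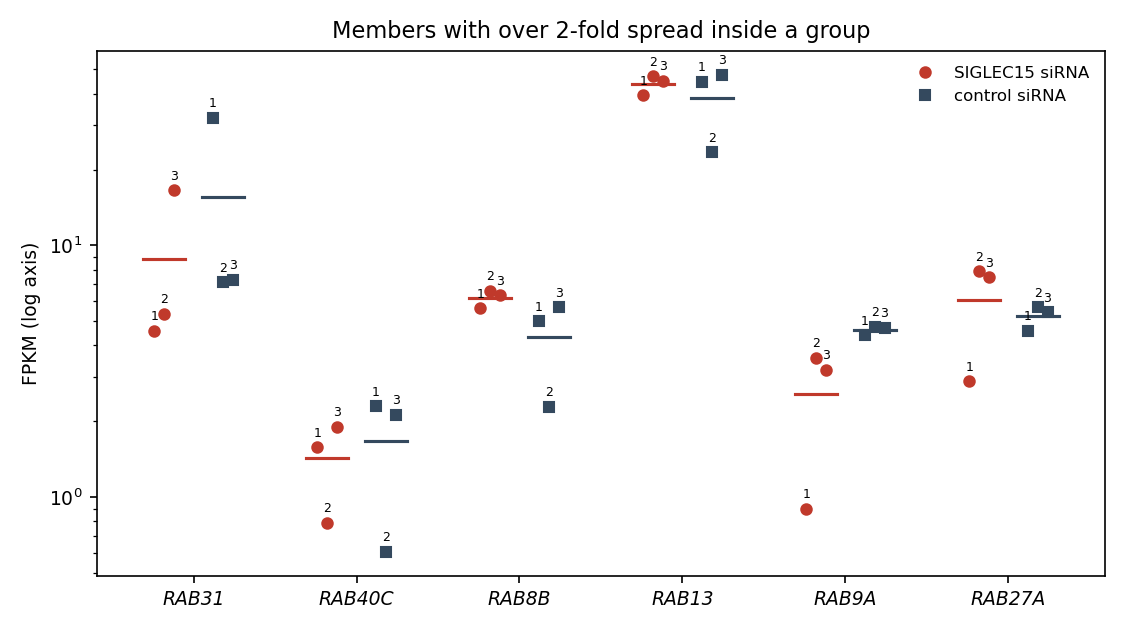
FPKM of the 6 members with a more than 2-fold spread inside a group, on a log axis, with the replicate number over each point (SIGLEC15 siRNA in red, left of control siRNA in dark blue) and a line at each group mean. In each of them 1 library stands away from the other libraries of a group, and it is not the same library throughout.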

How the data were processed

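Poly(A) RNA of 143B cells was sequenced as paired-end libraries, 3 per group, per the labels' protocols. The authors deposited counts per gene as whole numbers and FPKM values (fragments scaled to transcript length and library size) beside them, per the file headers, with 0.0001 standing for an FPKM of 0. HISAT, StringTie and edgeR are named in the submitters' processing notes, while versions, genome build, strand use and the way of counting are not given there. All value columns had a sample (0 unmatched columns).

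The counts went into edgeR 4.0.16 (R 4.3.3; filterByExpr, minimum count 10 and total 15; TMM; quasi-likelihood F test, no covariate), with Benjamini-Hochberg adjustment over all 18910 tested genes and a call at an adjusted p under 0.05. Each SE is the log2 fold change over the root of F, and 95% intervals use the fit's degrees of freedom. Levels are FPKM, and CPM uses TMM-scaled libraries. Sums and shares were compared by exact permutation tests in scipy 1.17.1. The test was tried on simulated data. The libraries of every pair differed beyond counting noise.

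The members, role groups and gene lists were chosen with earlier results of these data known. Values per library are given for called members, RAB5A, RAB5B and RAB5C, the 2 members of highest FPKM per role and the 3 uncalled members of largest change, with called genes of the regulator and effector lists, EEA1, RABEP1, APPL1 and SIGLEC15; members near the threshold, variable ones, paralogs and overlapping genes were added after their values were seen. Some genes and lists that this rule takes are not reported here. Coordinates of 30 of the 66 members equal those of GENCODE 29. Alternatives were DESeq2 1.42.0, median-of-ratios size factors, no filter beyond 1 count, limma-trend (limma 3.58.1) on FPKM at a pseudocount of 1 and of 0.1, each with a mean of at least 1 FPKM, the replicate number as a block, and each library left out.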

Additional observations from a re-analysis of the deposited data

How the results depend on the processing

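RAB5B and RAB7A were called lower under all 12 alternatives, with log2 fold changes of -3.44 to -2.25 and -1.90 to -1.71. RAB39B was called in 11 of 12, RAB2B in 5 and RAB12 in 4. Against 5 members called changed (1 higher, 4 lower) and 879 genes, DESeq2 called 17 members (8 higher, 9 lower) and 2917 genes. Leaving out 1 library gave 3 to 4 members, 0 to 1 higher, and 260 to 431 genes. Called higher were 0 members with no filter and 2 with limma-trend on log2(FPKM + 1) or log2(FPKM + 0.1). The counts did not move when RAB3IP and RAB5IF were left out, a choice made once the values were known. The members' median log2 fold change of -0.02 was -0.044 with limma-trend on log2(FPKM + 0.1) and -0.062 to 0.034 with 1 library left out. The difference of the RAB5A, RAB5B and RAB5C sum, 1.45 FPKM, turned to -18.9 in CPM and lay between -0.671 FPKM (without SIGLEC15 siRNA replicate 2) and 3.37 FPKM (without SIGLEC15 siRNA replicate 3) with 1 library left out, and that of the sum of all members, -69.1 FPKM, to 33.3 FPKM without RAB7A. The cause of these changes was not tested, apart from the fewer libraries or the gene left out.

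Same-numbered libraries did not deviate together over the tested genes (correlations of -0.05, 0.01 and -0.06 for numbers 1, 2 and 3). These values gave no sign of pairing. How the replicates were made is not stated, so whether the numbers pair the samples is not known here. Fitting the replicate number as a block called 50 genes and 2 members, RAB5B and RAB7A, 2 lower and 0 higher (edgeR adjusted p = 0.0362 each).

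Of 61 members, 39 kept the sign of their log2 fold change under every alternative. Signs turned in 22 uncalled members, which the depth and the spread between libraries do not resolve. With 1 library left out, the log2 fold changes ranged over RAB13 -0.082 to 0.37, RAB26 -0.36 to 0.67, RAB27A -0.0099 to 0.53, RAB2A -0.22 to 0.0044, RAB31 -1.64 to 0.29, RAB33A -0.40 to 1.66, RAB35 -0.0041 to 0.11. For others the range was RAB37 -0.90 to 0.27, RAB38 -0.083 to 0.032, RAB39A -0.16 to 0.13, RAB3A -0.79 to 0.15, RAB3C -0.17 to 0.26, RAB3D -1.60 to 0.50, RAB40A -0.25 to 0.49. For the rest it was RAB40C -0.63 to 0.064, RAB41 -0.32 to 0.19, RAB43 -0.95 to 1.84, RAB4A -0.25 to 0.12, RAB4B -0.096 to 0.14, RAB6B -0.12 to 0.038, RAB6D -0.11 to 0.69 and RAB7B -0.10 to 0.33. With the replicate block RAB43 was -0.022.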
